A study of Homo sapiens with 8 samples.

Results

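The promoter windows of 10 imprinted genes that lie outside chromosome 15 were examined for trimethylated lysine 9 of histone H3 (H3K9me3): MEST, PEG3, USP29, PEG10, SGCE, IGF2, H19, PHLDA2, CDKN1C and GNAS. Every window listed under one of these names in the promoter tables was taken, which gave 16 of 38157 windows. These belonged to 8 genes, since PEG3 and PEG10 had no window under their names. The chromatin came from SiHa, a human cell line established from a cervical squamous carcinoma. Cells were placed in a transwell, a chamber with a porous membrane, and after 10 h those that had crossed (migrated) and those that had not (non-migrated) were collected apart. All groups share the line and the transwell, the labels name no drug or genetic change, and no cells kept out of a transwell are used here. Each fraction gave an input library (sonicated chromatin without antibody) and an H3K9me3 library in each of 2 paired replicate sets, so that 8 libraries formed 4 groups of n = 2. Set 1 was made with another library kit than set 2 and had many duplicate reads, which were removed. Both fractions of a set were made with 1 kit.

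Imprinted genes are transcribed mainly from the copy inherited from one parent. In many imprinted domains a control region is methylated on DNA in only one germline, and on that copy zinc finger proteins such as ZFP57 and ZNF445 recruit TRIM28 and the methyltransferase SETDB1, which lay down H3K9me3, while the other copy stays free of it. The mark is therefore a known companion of the DNA-methylated copy of such regions, which need not be the silent copy of every gene nearby. Reads in a promoter window add up both alleles. MEST, PEG3, USP29, PEG10, SGCE and IGF2 are known as paternally expressed. H19, PHLDA2 and CDKN1C are known as maternally expressed, and GNAS gives transcripts from either or both alleles. No RNA or DNA methylation was measured in these libraries, and the imprinting state of the SiHa line was not tested.

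To show how different the starts of these genes are, 4 promoter sequences are printed. They are the 250 bases before a transcription start in RefSeq (GRCh38.p14), 5′ to 3′ on the strand of the gene, with every CG dinucleotide, the site of DNA methylation, in capitals. The sequence table held 4 of the 10 genes, and for genes with several starts 1 was chosen. The first stretches are chr19:57118837-57119086 (plus strand) for USP29, which had the highest fitted H3K9me3 over input of all members, and chr7:130491079-130491328 (plus) for the MEST start that faces an antisense transcript. The others are chr11:2001267-2001516 (minus) for H19, a maternally expressed RNA, and chr20:58888930-58889179 (plus) for the GNAS start with the most CG sites. Which window a shown start belongs to was not checked.
USP29: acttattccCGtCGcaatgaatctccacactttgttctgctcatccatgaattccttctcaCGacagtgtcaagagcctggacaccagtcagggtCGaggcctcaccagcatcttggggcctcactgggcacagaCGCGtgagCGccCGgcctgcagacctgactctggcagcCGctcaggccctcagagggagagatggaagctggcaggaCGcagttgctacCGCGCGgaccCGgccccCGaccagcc
MEST: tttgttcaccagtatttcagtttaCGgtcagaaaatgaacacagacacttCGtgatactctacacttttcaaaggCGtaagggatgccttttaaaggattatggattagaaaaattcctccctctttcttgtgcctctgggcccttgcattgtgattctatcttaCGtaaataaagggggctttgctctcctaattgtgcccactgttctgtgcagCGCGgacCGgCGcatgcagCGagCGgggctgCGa
H19: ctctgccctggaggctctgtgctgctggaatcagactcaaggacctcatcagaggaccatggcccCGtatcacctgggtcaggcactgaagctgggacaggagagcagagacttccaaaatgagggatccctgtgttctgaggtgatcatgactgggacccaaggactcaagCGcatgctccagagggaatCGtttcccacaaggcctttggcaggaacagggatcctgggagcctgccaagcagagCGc
GNAS: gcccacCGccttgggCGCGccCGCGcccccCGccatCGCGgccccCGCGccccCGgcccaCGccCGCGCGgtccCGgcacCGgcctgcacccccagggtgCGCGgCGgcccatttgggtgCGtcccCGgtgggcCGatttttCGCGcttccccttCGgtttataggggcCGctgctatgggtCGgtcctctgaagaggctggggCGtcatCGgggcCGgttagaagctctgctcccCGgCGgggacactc
The USP29 stretch held 15 CG sites and 62% G or C, the MEST stretch 11 and 46.8%, the H19 stretch 4 and 58%, and the GNAS stretch 33 and 75.6%. Across 35116 RefSeq promoters the median was 11 CG sites, with quartiles of 3 and 23, so that GNAS lay above and H19 between the lower quartile and the median. The methylated form of TGCCGC is the sequence that ZFP57 binds. Searched on both strands, TGCCGC was present in 12.7% of all 250-base stretches and in none of the 4 shown. Another MEST start and another GNAS start each held 1 match. The H3K9me3 windows were counted on hg19, and positions were not carried from one build to the other.

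The libraries differed much in depth. The input libraries of set 1 held 388191 (non-migrated) and 684949 (migrated) reads in promoter windows and the H3K9me3 libraries 164766 and 88028. In set 2 the input libraries held 1729061 and 1679874 reads and the H3K9me3 libraries 1137376 and 984835. In the shallowest library (migrated H3K9me3, set 1) a window held 1 read in the median and 30.5% of windows held none. A count of 0 (up to 3 reads) in the H3K9me3 libraries of set 1 allows a level of up to 17.0 reads scaled to library size (RPM) in non-migrated and 28.9 RPM in migrated cells. Values below are log2 of H3K9me3 over input after the libraries were scaled by trimmed means (TMM), fitted over both fractions and both sets with limma and given with the SE. The scale has its 0 at the centre that TMM sets, called the typical promoter here. The median of the 36440 tested windows was lower, at -0.345, so a value just under 0 is not low among all windows. Windows of a gene are numbered by position, and positions are those of hg19 as deposited.

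Of the 16 windows, all of which were tested, 4 were enriched for H3K9me3 over input at an adjusted p under 0.05 by limma, against 15.8% of all tested windows. Another 5 lay below the typical promoter, against 35.2% of all windows, and 7 passed in neither direction. The values ran from log2 -2.96 for PHLDA2 to 2.74 for USP29, and the median was -0.18. All 4 enriched windows were listed under paternally expressed genes (USP29, MEST, IGF2 and SGCE). The windows below the typical promoter were those of PHLDA2, H19 window 1, GNAS window 1, IGF2 window 4 and MEST window 1. This split depends on where 0 is set. With the constants the authors had deposited in place of TMM, the median window was at -1.30, 2 member windows (USP29 and MEST window 2) were enriched and 8 lay below 0, while IGF2 window 1 (log2 0.29) and SGCE window 1 (0.20) did not pass.

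**Figure D1:**
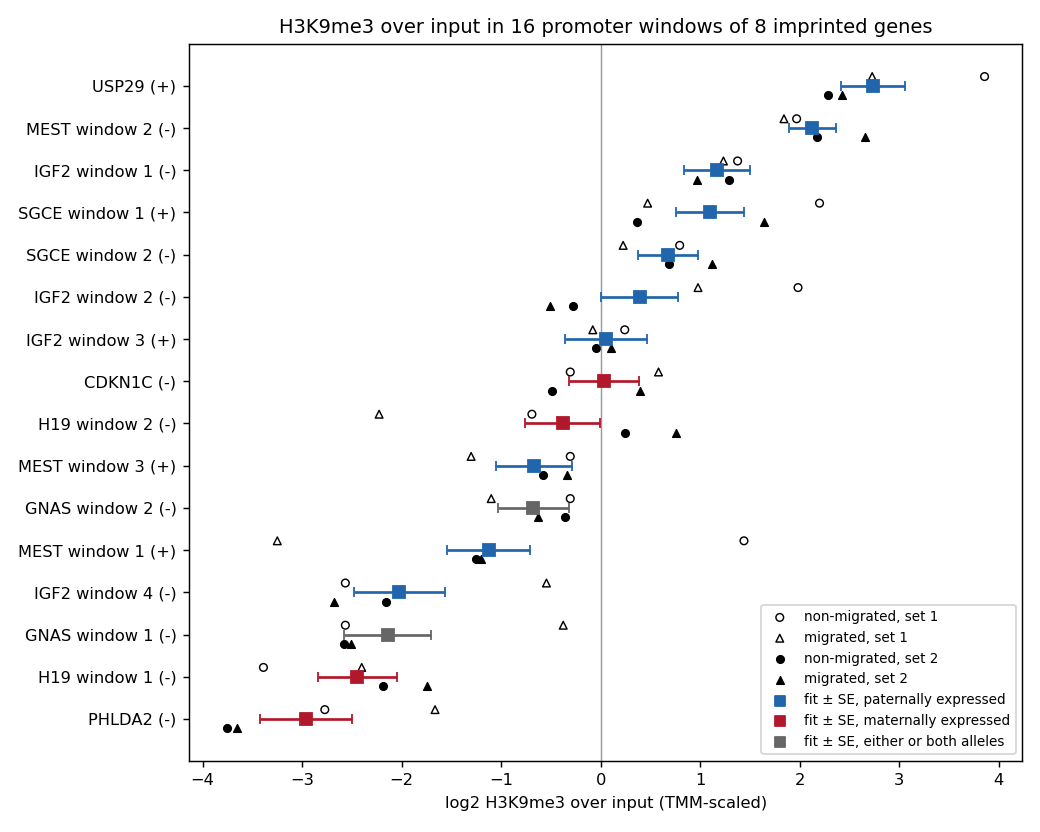
H3K9me3 over input (log2, TMM-scaled) of the 16 windows, with the strand of the window in brackets. Squares with bars are fitted values ± SE over 8 libraries, circles and triangles are the 4 pairs of libraries; USP29 (2.74) and MEST window 2 (2.13) are at the top and H19 window 1 (-2.44) and PHLDA2 (-2.96) at the bottom.

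USP29 (ENSG00000131864), which encodes a ubiquitin-specific protease and lies in the PEG3 domain of chromosome 19, had the highest value. Its window (chr19:57629411-57631511, plus strand, the strand of the gene) held 211 H3K9me3 reads against 60 input reads in the non-migrated pair of set 2 and 160 against 50 in the migrated pair. In set 1 it held 16 against 2 and 11 against 11, and the equal numbers of the last pair are a 6.62-fold ratio once the depth of these libraries is taken into account. All 4 pairs were thus above input. The ratio was 4.89 in non-migrated cells of set 2 (exact 95% counting interval 3.65 to 6.63) and 5.41 in migrated cells (3.92 to 7.60). The fitted value was log2 2.74 ± 0.32, which is 6.66-fold (adjusted p = 1.06e-07 by limma), at percentile 99.9 of all tested windows. Both fractions passed on their own, at log2 2.75 ± 0.39 and 2.72 ± 0.37.

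MEST (ENSG00000106484), which encodes a protein of the alpha/beta hydrolase fold, had 3 windows on chromosome 7 with different values. Window 2 (chr7:130130913-130133013) is on the minus strand, opposite to the gene, and held 176 H3K9me3 reads against 54 input reads in the non-migrated pair of set 2 and 217 against 58 in the migrated pair. Set 1 gave 20 against 11 and 16 against 30, which are ratios of 3.99 and 3.53. All pairs were therefore above input, and the fitted value was log2 2.13 ± 0.24 (4.37-fold, adjusted p = 4.44e-08 by limma). RefSeq places the start of the antisense transcript MESTIT1 352 bases from a MEST start on GRCh38, and which transcript the window on hg19 belongs to was not checked. Window 3 (chr7:130133952-130136052, plus strand), separated from window 2 by 939 bases, was not enriched. It held 20 against 42 reads and 17 against 37 in set 2, and 3 against 9 and 1 against 24 in set 1. Its value was log2 -0.67 ± 0.38 (adjusted p = 0.144 by limma).

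Window 1 of MEST (chr7:130124046-130126146, plus strand) held 18 H3K9me3 reads against 61 input reads in the non-migrated pair of set 2 and 16 against 64 in the migrated pair. In set 1 the non-migrated pair held 10 against 8 and the migrated pair 0 against 31. The first of these was above input and the other 3 pairs were below it. The fitted value was log2 -1.13 ± 0.42 (adjusted p = 0.0246 by limma). This call held in 7 of 16 alternatives. It was lost with limma-trend (-1.07), with 2 reads added in place of 0.5 (-0.60), without the filter on low counts (-0.93) and with the quasi-Poisson model (-0.60). Without the migrated H3K9me3 library of set 1 the value was 0.10. Without the non-migrated H3K9me3 library of set 2 it was -0.17, without the migrated input of set 1 -0.83, without the migrated input of set 2 -1.09 and without the non-migrated input of set 2 -0.83, and none of these passed. Without the non-migrated H3K9me3 library of set 1 it was -1.86 and without the migrated one of set 2 -2.04.

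SGCE (ENSG00000127990), which encodes epsilon-sarcoglycan, a membrane protein of the sarcoglycan family, had 2 windows that overlap by 317 bases and so share some reads. In RefSeq on GRCh38 the start of PEG10, a gene derived from a retrotransposon, lies 192 bases from the SGCE start in the other direction. Window 1 (chr7:94283637-94285737) is on the plus strand, opposite to SGCE. In set 2 it held 48 H3K9me3 reads against 52 input reads in the non-migrated pair and 74 against 40 in the migrated pair, and in set 1 11 against 5 and 4 against 21. The ratios of these pairs were 1.28, 3.13, 4.83 and 1.26, so migrated cells had the higher ratio in set 2 and the lower one in set 1. Window 1 passed over both fractions, at log2 1.10 ± 0.34 or 2.14-fold (limma, adjusted p = 0.00756), and in migrated cells (1.48 ± 0.41), whereas non-migrated cells alone gave 0.72 ± 0.44 (adjusted p = 0.216). The difference between the fractions did not pass its own test (log2 0.76 ± 0.52, adjusted p = 0.999 by limma). The enrichment did not pass without the non-migrated input of set 1 (0.80) or the migrated H3K9me3 library of set 2 (0.75), and was 1.77 without the migrated H3K9me3 library of set 1. Window 2 (chr7:94285421-94287521, minus strand, that of SGCE) was above input in all 4 pairs, with ratios from 1.06 to 2.17, and did not pass (log2 0.68 ± 0.31, adjusted p = 0.0638 by limma). It passed in 7 of 16 alternatives: without the migrated H3K9me3 library of set 1 (1.09) or the non-migrated one of set 2 (0.82), with total reads (0.80), limma-trend (0.70) or 2 reads added (0.79), without the low-count filter (0.96) and without the replicate block (0.86).

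IGF2 (ENSG00000167244) encodes a growth factor with several promoters, and its 4 windows on chromosome 11 differed by 3.19 on the log2 scale from the lowest to the highest. Window 1 (chr11:2151094-2153194, minus strand, that of the gene) held 116 H3K9me3 reads against 66 input reads in the non-migrated pair of set 2 and 80 against 69 in the migrated pair, and 6 against 5 and 5 against 15 in set 1. These are ratios of 2.44, 1.96, 2.63 and 2.21, all above 1. Fitted over all libraries it was log2 1.17 ± 0.33 (2.25-fold, adjusted p = 0.00342 by limma). Window 2 (chr11:2155339-2157439, minus strand) was above input in both pairs of set 1 (ratios of 4.39 from 4 against 2 reads, and 1.84) and below it in both pairs of set 2 (0.818 and 0.694), and gave log2 0.39 ± 0.39. Window 3 (chr11:2159731-2161831, plus strand) had ratios from 0.662 to 1.10 and gave log2 0.06 ± 0.41. Neither passed. Window 2 was at 0.96 and passed without the non-migrated H3K9me3 library of set 1, and was at -0.04 without the non-migrated input of set 1. Window 3 was at -0.03 without the migrated H3K9me3 library of set 2.

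Window 4 of IGF2 (chr11:2182339-2184571, minus strand), which is wider than the usual 2100 bases and lies 20.5 kb from window 3, was low. It is listed under IGF2, but which transcript starts there was not checked. It held 11 H3K9me3 reads against 71 input reads in the non-migrated pair of set 2 and 6 against 70 in the migrated pair, and 0 against 6 and 1 against 14 in set 1. The ratios in set 2 were 0.215 and 0.145. In set 1 the non-migrated input (15.4 RPM) was under the limit of 17.0 RPM for a count of 0. Its fit gave log2 -2.02 ± 0.46 (adjusted p = 0.000402 by limma). Without the non-migrated H3K9me3 library of set 1 it was -1.10 and did not pass. It was -1.27 without the migrated and -2.73 without the non-migrated H3K9me3 library of set 2, and -1.26 with 2 reads added in place of 0.5, and passed there.

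**Figure D2:**
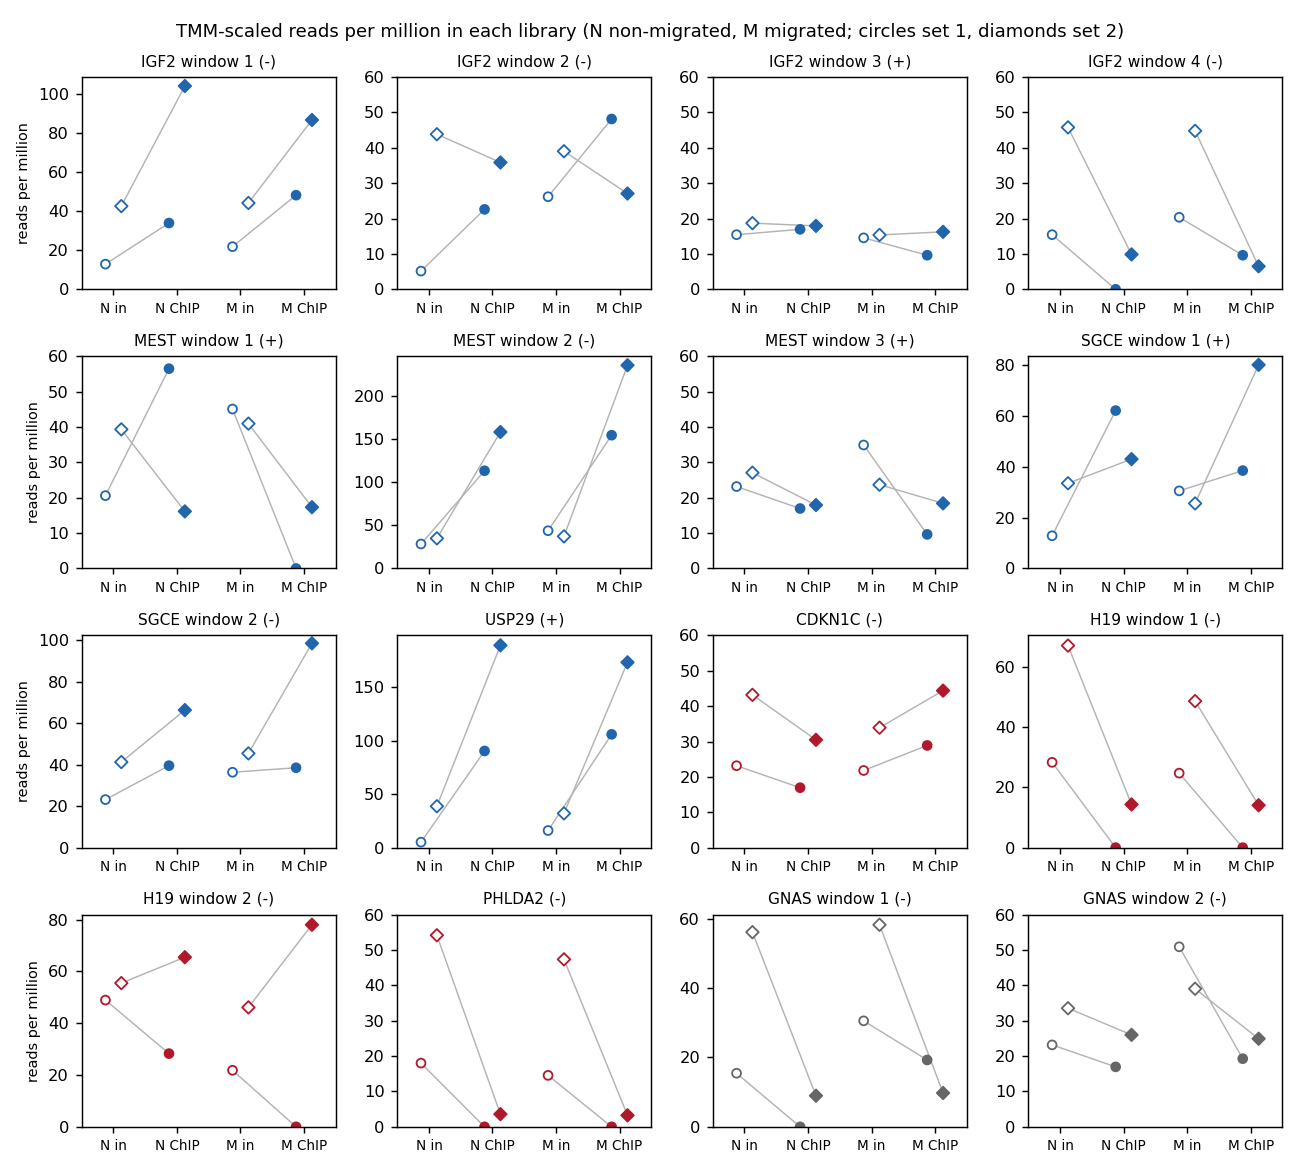
TMM-scaled reads (RPM) of the 16 windows in each of the 8 libraries, with open symbols for input and filled symbols for H3K9me3, joined within a pair. In non-migrated cells of set 2, USP29 was at 38.7 in input and 189 in H3K9me3, and PHLDA2 at 54.2 and 3.59.

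H19 (ENSG00000130600), the non-coding RNA that shares a control region with IGF2 and is transcribed from the maternal copy, had 2 windows on its own strand with different values. Window 1 (chr11:2017961-2020061) held 16 H3K9me3 reads against 104 input reads in the non-migrated pair of set 2 and 13 against 76 in the migrated pair. In set 1 it held 0 against 11 and 0 against 17. Every H3K9me3 library was thus below its input, with ratios of 0.214 and 0.289 in set 2, although the migrated input of set 1 (24.7 RPM) was itself under the limit of 28.9 RPM for a count of 0. The fitted value was log2 -2.44 ± 0.40 (adjusted p = 7.71e-06 by limma), and both fractions passed. With 2 reads added in place of 0.5 it was -1.45 and passed. Window 2 (chr11:2022600-2024700), 2.54 kb away, held 73 against 86 and 72 against 72 reads in set 2 and 5 against 19 and 0 against 15 in set 1. Scaled for depth, both pairs of set 2 were above input (ratios of 1.18 and 1.69) and both of set 1 below it. Over all libraries it was log2 -0.38 ± 0.38 and did not pass. Its sign turned without 1 of 3 libraries, to 0.53 without the migrated H3K9me3 library of set 1, 0.09 without the migrated input of set 2 and 0.27 without the non-migrated H3K9me3 library of set 2. It passed as below the typical promoter without the non-migrated H3K9me3 library of set 1 (-1.03) or the migrated one of set 2 (-1.20).

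PHLDA2 (ENSG00000181649), whose product restrains growth of the placenta, had the lowest value of all members. Its only window (chr11:2950585-2952685, minus strand, that of the gene) held 4 H3K9me3 reads against 84 input reads in the non-migrated pair of set 2 and 3 against 74 in the migrated pair. Both H3K9me3 libraries of set 1 held 0 reads, against 7 and 10 in the inputs. These inputs were at 18.0 and 14.5 RPM, against limits of 17.0 and 28.9 RPM for a count of 0, so set 1 could hardly show a drop at this depth. In set 2 the ratios were 0.0662 (exact 95% counting interval 0.0176 to 0.176) and 0.0686 (0.0138 to 0.208). The fitted value was log2 -2.96 ± 0.46 (adjusted p = 3.74e-06 by limma), and 3.94% of tested windows were lower. With 2 reads added in place of 0.5 it was -1.85 and passed.

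CDKN1C (ENSG00000129757), the cyclin-dependent kinase inhibitor p57, lies 41.5 kb from the PHLDA2 window in the same domain and had a value near 0. Its window (chr11:2907011-2909111, minus strand, that of the gene) held 34 H3K9me3 reads against 67 input reads in the non-migrated pair of set 2 and 41 against 53 in the migrated pair, and 3 against 9 and 3 against 15 in set 1. The ratios were 0.706 and 1.31 in set 2 and 0.732 and 1.32 in set 1. In both sets the non-migrated cells were below and the migrated cells above the typical promoter, and every counting interval included 1. Over both fractions the value was log2 0.03 ± 0.35 (adjusted p = 0.949 by limma).

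GNAS (ENSG00000087460), which encodes the stimulatory G protein alpha subunit and alternative products from further promoters, had 2 windows. Both are on the minus strand, opposite to the gene. Window 1 (chr20:57463781-57465881) held 10 H3K9me3 reads against 87 input reads in the non-migrated pair of set 2 and 9 against 91 in the migrated pair, and 0 against 6 and 2 against 21 in set 1. The non-migrated input of set 1 (15.4 RPM) was under the limit of 17.0 RPM for a count of 0. The ratios of window 1 in set 2 were 0.160 and 0.167, and the fitted value was log2 -2.14 ± 0.44 (adjusted p = 0.000147 by limma). It was -1.13 without the non-migrated H3K9me3 library of set 1, -1.30 without the migrated and -2.78 without the non-migrated one of set 2, and -1.40 with 2 reads added in place of 0.5, and passed each time. Window 2 (chr20:57476882-57478982) had ratios from 0.378 to 0.775, all below 1, and did not pass (log2 -0.68 ± 0.36, adjusted p = 0.11 by limma).

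The windows were then grouped by the parental copy their genes are known to be transcribed from. Of 10 windows of 4 paternally expressed genes, 4 were enriched and 2 were below the typical promoter, with a median of log2 0.53 and a range of -2.02 to 2.74. Of 4 windows of 3 maternally expressed genes, none was enriched and 2 lay below it, with a median of -1.41 and a range of -2.96 to 0.03. Among all tested windows 15.8% were enriched and 35.2% lay below. With 4 windows the maternal counts are not set apart from these shares. The 2 GNAS windows had a median of -1.41. The groups overlapped: IGF2 window 4 and MEST window 1 (-1.13) were lower than the H19 window 2 and CDKN1C windows. IGF2 window 4, whose transcript was not checked, sets the lower end of the paternal range. The difference of the medians was 1.95, and it had the same sign in each of the 4 pairs of libraries, with 3.14 (non-migrated) and 2.29 (migrated) in set 1 and 1.5 and 1.21 in set 2. The 4 pairs measure the same windows. With few windows that were chosen with earlier results known, the difference was not tested. The maternally expressed windows all lie on chromosome 11, as do those of IGF2. Other windows within 200 kb had medians of log2 -0.50 and -0.92 there, -0.30 around SGCE, 0.18 around MEST and 0.97 around USP29. Parental class and locus therefore cannot be fully told apart here. Without PHLDA2 the difference was 0.92, and it was 1.91 with 1 value per gene and 1.81 with windows on the strand of the gene only.

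**Figure D3:**
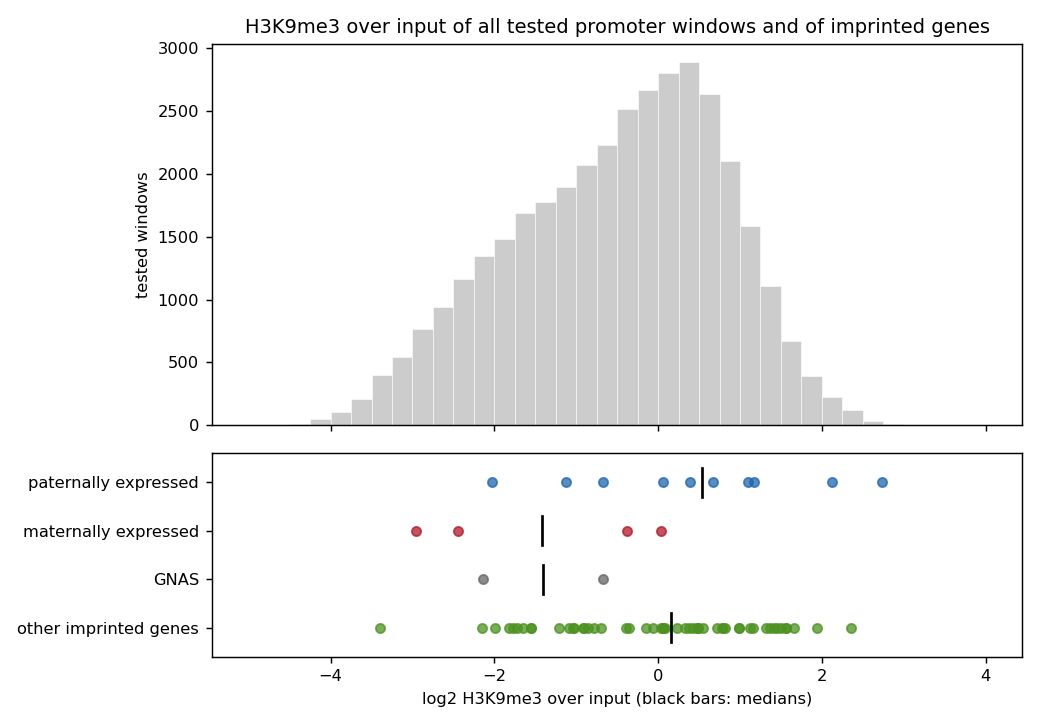
Upper panel: number of tested windows by log2 H3K9me3 over input. Lower panel: the members by parental class and 52 other imprinted genes, with medians as bars (0.53 for paternally expressed, -1.41 for maternally expressed, 0.16 for the other imprinted genes). The paternally expressed windows run from -2.02 to 2.74 and the maternally expressed ones from -2.96 to 0.03.

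Pooled reads gave the same order. In the paternally expressed group H3K9me3 over input was 2.79-fold (non-migrated) and 1.6-fold (migrated) in set 1, and 1.80-fold and 2.18-fold in set 2. In the maternally expressed group it was 0.382 and 0.349 in set 1 and 0.518 and 0.794 in set 2. These sums are weighted to windows with many reads, USP29 and MEST window 2 in the first group and H19 window 2 in the second.

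Windows on both strands were among the enriched and among the low ones. On the strand of the gene 2 of 11 windows were enriched and 4 low, and on the opposite strand 2 of 5 were enriched and 1 low, where low means below the typical promoter. With so few windows these counts are not set apart from the 15.8% enriched and 35.2% low among all windows. The 6 windows of genes assigned to a germline-methylated promoter region (MEST, SGCE and USP29) had a median of log2 0.89, with 3 enriched and 1 below. IGF2, H19, PHLDA2 and CDKN1C were assigned to control from a distance or to methylation gained after the germline. Their 8 windows had a median of -0.18, with 1 enriched and 3 below. Genes and not windows were assigned, and GNAS was kept apart as mixed. Whether a window overlaps a control region was not checked. USP29 was put in the first group through its domain, although its RefSeq start lies 278 kb from that of PEG3 on GRCh38. The 2 SGCE windows of that group overlap and share reads. With so few windows the difference between these groups was not tested.

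Whether the mark differed between migrated and non-migrated cells was asked with the input-corrected difference, H3K9me3 over input in migrated minus that in non-migrated cells. None of the 16 windows passed by limma, none had an unadjusted p under 0.05, and the quasi-Poisson model called none either. Of all 36440 windows 0% passed in either direction by limma, where 1283 had an unadjusted p under 0.05. The values of the members ran from log2 -1.20 ± 0.75 for MEST window 1 to 0.88 ± 0.51 for CDKN1C, and 10 of 16 were above 0, against 17925 of all 36440 windows. The SE of the difference ran from 0.37 for MEST window 2 to 0.84 for PHLDA2, and that size limits which changes could be detected. Within fractions, 3 windows were enriched (8.41% of all windows) and 4 lay below the typical promoter (23.6%) in non-migrated cells. In migrated cells 4 were enriched (12.9%) and 5 lay below (28.3%). These counts moved with single libraries. Without the migrated input of set 2, 1 was enriched and 0 lay below in migrated cells and 2 lay below in non-migrated cells. Without the migrated H3K9me3 library of set 2, 2 were enriched and 1 lay below in migrated cells. Without the migrated input of set 1, 2 lay below in migrated cells, without the non-migrated input of set 2, 2 lay below in non-migrated cells, and with the migrated H3K9me3 library of set 1 left out, 5 were enriched in non-migrated cells.

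USP29 had the smallest difference, at log2 -0.03 ± 0.41. MEST window 2 gave 0.35 ± 0.37 and IGF2 window 1 gave -0.33 ± 0.42. For CDKN1C the difference was 0.88 ± 0.51 (adjusted p = 0.999 by limma), from -0.31 to 0.58 in set 1 and from -0.49 to 0.39 in set 2. With the deposited constants it was 0.055. MEST window 1 gave -1.20 ± 0.75, with log2 1.44 in non-migrated against -3.25 in migrated cells of set 1 (10 and 0 H3K9me3 reads) and -1.26 against -1.21 in set 2. Without the non-migrated H3K9me3 library of set 2 this window was at -3.97 and passed, the only member to do so in the 16 alternatives run. The fitted differences of the other maternally expressed windows, none of which passed, were 0.47 for H19 window 2, 0.59 for H19 window 1 and 0.46 for PHLDA2. In set 1 alone H19 window 2 went the other way, with -0.69 in non-migrated and -2.23 in migrated cells. These 3 signs turned with the deposited scaling, to -1.03, -0.20 and -0.33. H19 window 2 also turned without either H3K9me3 library of set 2 (-2.20 and -2.19) and with limma-trend (-0.51).

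**Figure D4:**
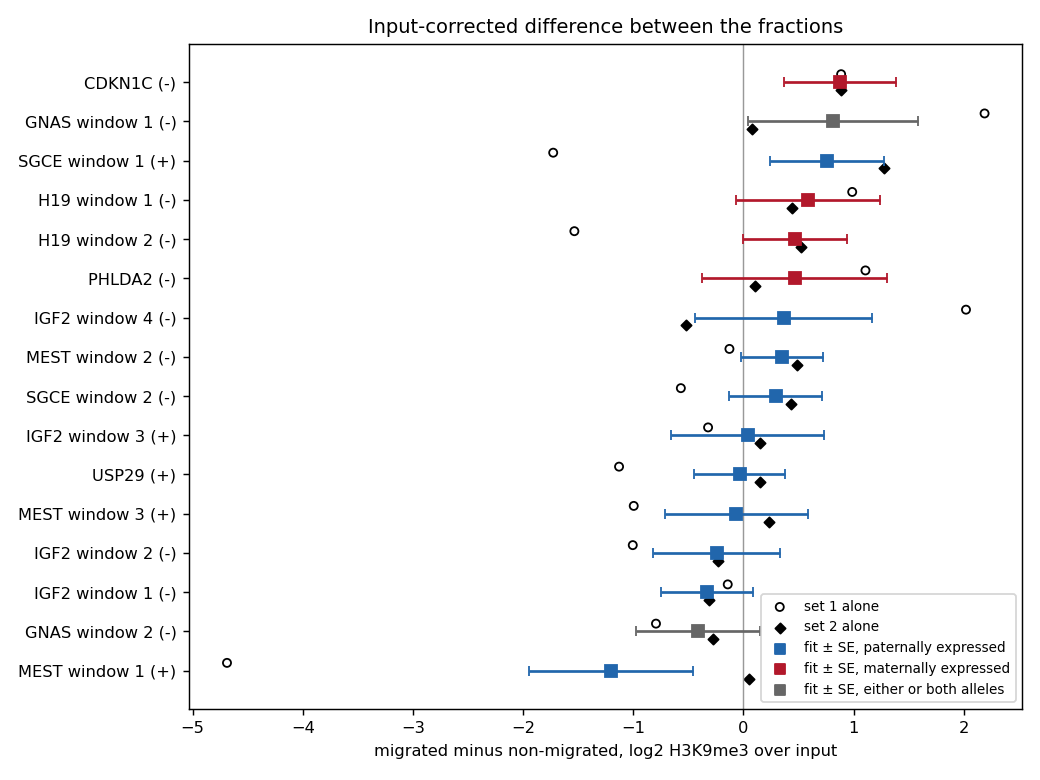
Input-corrected difference in log2 H3K9me3 between migrated and non-migrated cells. Squares with bars are fitted values ± SE, circles set 1 alone and diamonds set 2 alone; CDKN1C (0.88) is the highest, and in MEST window 1 (-1.20) the sets lie far apart.

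The surroundings of the members were compared within 200 kb on each side, to be read against 15.8% enriched and 35.2% below among all windows. Around USP29, 5 of 9 other windows were enriched and none lay below the typical promoter, and the highest of them (log2 1.85) was lower than USP29 itself. The nearest were a U3 small nucleolar RNA copy (2.27-fold), ZIM3 (2.49-fold), DUXA (1.55-fold, not passing) and ZNF264 (1.99-fold). Around MEST none of 6 and around SGCE none of 5 other windows passed in either direction, so MEST window 2 and SGCE window 1 were the only enriched windows among those tested within this distance. Around H19 and IGF2, 3 of 16 windows were enriched and 6 lay below, near those shares. There the 2 windows of MRPL23-AS1, which overlap and so share reads, lay 4.81 and 5.54 kb from H19 window 1. They were at 1.95-fold and 3.00-fold, next to the low H19 window. Around CDKN1C and PHLDA2, 1 of 12 was enriched and 6 lay below. Around GNAS, 3 of 12 were enriched and 3 lay below, and the enriched ones were those of GNAS-AS1, the antisense RNA of the locus (2.74-fold and 2.80-fold), and MIR296 (2.05-fold).

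**Figure D5:**
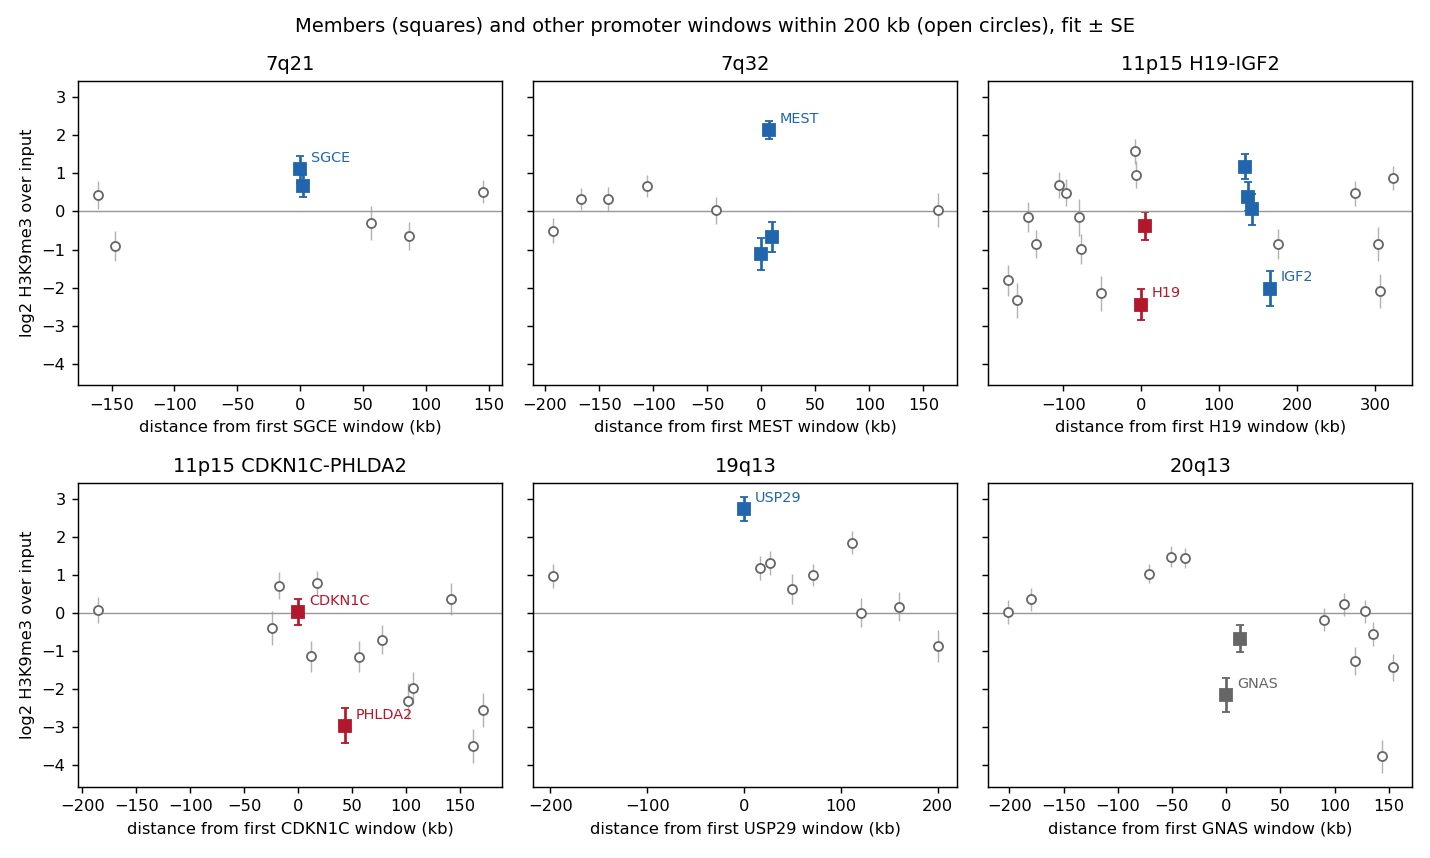
Log2 H3K9me3 over input (fit ± SE) of the members (squares) and all other tested windows within 200 kb (open circles) by distance from the first member window in kb. USP29 stands among windows that are mostly above 0, whereas PHLDA2 stands among windows that are mostly below 0.

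PEG3 and ZIM2 share a transcription start in RefSeq on GRCh38, and the file listed windows for ZIM2. The start of another gene, MIMT1, lies 176 bases from that of PEG3 in the other direction. The plus-strand ZIM2 window (chr19:57350270-57352370) held 217 H3K9me3 reads against 74 input reads in the non-migrated pair of set 2 and 213 against 52 in the migrated pair, and 5 against 8 and 12 against 14 in set 1. By limma it carried 3.85-fold more H3K9me3 than input (1.94 ± 0.32 in log2, adjusted p = 9.88e-06). The minus-strand window (chr19:57351996-57354097) did not pass (0.24 ± 0.37). These values are not assigned to PEG3, ZIM2 or MIMT1, because the overlap was not checked on one build.

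Other imprinted genes were taken from a list of 85 names, of which 52 had a tested window. By the window with the most reads per gene, 17 of 52 (32.7%) were enriched, against 18.3% of all genes, and 12 (23.1%) lay below the typical promoter, against 32.3%. The enriched ones include ZIM2, ZIM3, ZNF264 and ZNF331, zinc finger genes of chromosome 19. ZIM3, ZNF264, GNAS-AS1 and SLC22A18AS were also counted above as neighbours of members. Genes of 1 domain are not independent, and the excess over all genes was not tested. The reads that chose the window include those of the H3K9me3 libraries, so the choice favours windows with the mark. All genes were treated by the same rule, and the strand of the window played no part in it. The median was log2 0.16. The highest were the windows listed under WT1 (5.13-fold), ZIM2 (the plus-strand window), ZNF331 (3.16-fold), TRAPPC9 (2.96-fold), MEG3 (2.95-fold), RTL1 (2.83-fold), GNAS-AS1 and BLCAP (2.67-fold). The lowest were VTRNA2-1 (0.0952-fold), MRPL23 (0.225), TSSC4 (0.251), CTSD (0.282), COPG2 (0.292), PON2 (0.302), HM13 (0.320) and IGF2R (0.342). With the deposited constants, which moved the median of all windows to -1.30, 1 of the 52 was enriched in place of 17. The share of all genes enriched under these constants is not given here. The count of enriched genes in the list was 11 without the migrated input of set 1 or the non-migrated input of set 2. None of the 52 changed between the fractions by limma. USP29 was above, and MEST window 2 below, the highest of this list.

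Among 13 genes for factors that keep imprints, 2 (15.4%) were enriched at their own promoters and 5 (38.5%) were low, which is near the 18.3% and 32.3% of all genes, and none changed between the fractions by limma. The enriched ones were ZNF445 (2.91-fold), a zinc finger gene, and NLRP7 (1.97-fold), an oocyte gene. TRIM28, the corepressor, was at 0.222-fold and HELLS, a chromatin remodeller, at 0.134-fold. These windows describe the mark at the factors' own genes and not the activity of the factors.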

How the data were processed

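Input and H3K9me3 libraries of non-migrated and migrated SiHa cells were used, 2 sets of 4. Reads were aligned to hg19, with Bowtie2 2.2.9, SAMtools 1.3 and FastQC 0.11.5 listed in the submitters' processing notes. Which program counted windows is not stated in them. The deposited values are log2 per the file headers, for 38157 windows, of which 36796 span 2100 bases (2000 upstream to 100 downstream of a start). Each was log2 of a whole number of reads shifted by a library constant of unstated origin, and empty windows stood at log2 of 0.9. With the shift removed, 100% of values were whole within 0.01. For the migrated H3K9me3 library of set 1, title and description disagree on the replicate number; its title was followed.

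The planned limma fit for deposited log2 values was run (limma 3.58.1, R 4.3.3) on log2 of recovered reads plus 0.5 with voom precision weights and TMM scaling (30% of ratios and 5% of levels trimmed). Windows needed 10 reads at the median library size in at least 2 libraries and 15 reads in all, which left 36440. The model held set, antibody, their product, fraction, and fraction by antibody (2 residual and 33.1 prior degrees of freedom). P-values were adjusted over all windows by Benjamini-Hochberg, and 0.05 was the threshold. Each SE was taken from a design written for that contrast. The sets pair the libraries per the series' design text; deviations of same-set libraries correlated at r = 0.147 (H3K9me3) and 0.469 (input). The 2 sets differ in kit, and the model takes out a set effect for input and for H3K9me3. SEs and p-values therefore measure the spread left within sets, moderated over all windows. They do not measure how far the sets differ in H3K9me3 over input. Counting intervals and floors of 3 reads cover counting error only, since reads carry no molecular identifiers. The script was tested on simulated reads.

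All member windows are described. Of the other imprinted genes, up to 8 per direction with an adjusted p under 0.05 and at least 20 input reads per library on average were named, and up to 4 neighbouring windows per domain by distance within 200 kb. A gene with several windows was taken, in the 2 lists and among all genes, by the one with the most reads over input and H3K9me3 libraries together. The members and lists were chosen with earlier results of these data known. Gene strands come from RefSeq promoters for MEST, USP29, H19 and GNAS and from textbook knowledge for the rest. Alternatives were other scalings, weights, pseudocounts, filters and models, a fit without the block, and each library left out.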

Additional observations from a re-analysis of the deposited data

Results flagged for a closer look

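In the CDKN1C window, non-migrated cells were below and migrated cells above the typical promoter in both sets, which gave opposite signs in the fractions in every pair of libraries. The difference was log2 0.88 ± 0.51 and did not pass (adjusted p = 0.999 by limma). With the constants as deposited it was 0.055. The same pattern of signs was present in 1185 of 36440 tested windows (3.25%). The set 1 part rests on 3 H3K9me3 reads in each fraction. In non-migrated cells the window was at -0.31 in set 1 and -0.49 in set 2, where the medians of all tested windows were -0.24 and -0.23. In migrated cells it was at 0.58 and 0.39, where those medians were -0.38 and -0.32.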

How the results depend on the processing

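Depth limits these results, since the H3K9me3 libraries of set 1 had medians of 1 and 3 reads per window. USP29, MEST window 2, GNAS window 1, H19 window 1 and PHLDA2 kept their calls in 16 of 16 alternatives, which were 8 other settings and 8 fits with 1 library left out. With the constants as deposited, the median window moved from -0.345 to -1.30, so that 2 windows were enriched and 8 lay below over both fractions, 1 was enriched in non-migrated cells, 0 were enriched and 8 lay below in migrated cells, and 1 other imprinted gene was enriched. In migrated cells limma-trend left 2 enriched and 3 below, and 3 lay below without a filter on low counts. Without the replicate block, which pairs the sets, 3 lay below in migrated cells, and over both fractions 5 were enriched and 5 lay below. The difference of paternally and maternally expressed medians was 0.917 without PHLDA2 and 1.81 without USP29, 2 alternatives added after the data were seen.

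Leaving out 1 library at a time gave 3 to 5 enriched and 4 to 6 low windows over both fractions. It gave 2 to 5 and 2 to 4 in non-migrated cells, 1 to 5 and 0 to 5 in migrated cells, and 0 to 1 changed windows. The difference of medians ran from 1.64 to 2.45, and 11 to 20 other imprinted genes were enriched.

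Signs of H3K9me3 over input turned only for windows that had not passed, apart from MEST window 1 (lowest -2.04, highest 0.10 with 1 library left out). With the deposited constants SGCE window 2 was at -0.25, IGF2 window 2 at -0.35, IGF2 window 3 at -0.90 and CDKN1C at -0.89. With median-of-ratios factors IGF2 window 3 was at -0.041 and CDKN1C at -0.066. H19 window 2 was at 0.071 with a pseudocount of 2 and 0.32 without the block. With 1 library left out, IGF2 window 2 ran from -0.038 to 1.08, IGF2 window 3 from -0.031 to 0.39, CDKN1C from -0.019 to 0.27 and H19 window 2 from -1.20 to 0.53.

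The sign of the change between fractions turned with the deposited constants for MEST window 2 (-0.68), SGCE windows 1 (-0.65) and 2 (-0.77), IGF2 windows 3 (-0.96) and 4 (-0.089), H19 windows 2 (-1.03) and 1 (-0.20) and PHLDA2 (-0.33). Under limma-trend SGCE windows 1 (-0.23) and 2 (-0.069), IGF2 window 3 (-0.087) and H19 window 2 (-0.51) turned. IGF2 window 3 was at -0.019 with total reads, USP29 at 0.023 and IGF2 window 4 at -0.28 with the quasi-Poisson model, USP29 at 0.007 without the block, and MEST window 3 at 0.03 with a pseudocount of 2. With 1 library left out, the change ran from -1.48 to 0.23 for USP29, -0.021 to 0.47 for MEST window 2, -0.58 to 0.15 for MEST window 3, -0.89 to 0.35 for IGF2 window 1, -2.27 to 0.83 for IGF2 window 2, -0.23 to 0.14 for IGF2 window 3, -0.58 to 2.31 for IGF2 window 4, -0.64 to 1.14 for SGCE window 1, -0.23 to 0.40 for SGCE window 2, -2.20 to 1.27 for H19 window 2 and -0.10 to 2.87 for GNAS window 1. None of these changes passed in any setting.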
